A study of Homo sapiens with 6 samples.

Results

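The 9 chemokine receptor genes described here, CCR1, CCR2, CCR6, CCR7, CCRL2, CXCR2, CXCR3, CXCR4 and CX3CR1, were followed at every probe set that the platform annotation assigns to them, which gave 15 of the 54613 non-control probe sets on the array. Of the genes, 4 had 1 probe set and 5 had several, and each of the 15 named a single gene. The receptors were selected on their function in myeloid cells together with the difference between treated and control arrays in these same data, so their levels and changes are given as a description with no test. Cells were MOLM-14, a human line established from acute myeloid leukaemia that carries the MLL-AF9 fusion. Both groups were the same line cultured for 3 h, 1 with the solvent dimethyl sulfoxide (DMSO, 3 samples) and the other with 25 nM cortistatin A (CA, 3 samples), an inhibitor of the Mediator kinases CDK8 and CDK19. Each sample was read on 1 Affymetrix U133 Plus 2.0 array, in log2 units of the RMA scale. A single line was used, and the labels speak of triplicate plating without naming separate cultures, so the spread between samples may be technical.

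Chemokine receptors are membrane-spanning receptors that couple to inhibitory G proteins and steer leukocytes along gradients of small secreted proteins, the chemokines. In the myeloid lineage they govern when cells leave the bone marrow and which tissues they enter: CXCR4 holds progenitors in the marrow niche, CCR2 lets inflammatory monocytes leave it, and CXCR2 draws neutrophils out. Atypical receptors such as CCRL2 bind ligand without activating G proteins.

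Array medians lay between 5.03 and 5.08, and these serve below as a rough mark of dim and bright signal, since levels of different probe sets cannot be ranked against each other. Correlations between arrays were 0.996 to 0.998. The array of CA replicate 3 stood apart along the leading principal component (31.6% of the variance), at 33.8 against -12.8 to 6.44 for the other arrays, and changes are therefore also given without it. Of 10 measured myeloid and monocyte markers, 6 were above the array medians on every array and 2 below. LYZ was bright, at a mean log2 value of 12.46 in DMSO, and so was MNDA at 7.93, while CD14, which marks mature monocytes, was dim at 3.80 and ANPEP at 4.15. By the same count, 3 of 9 T and NK cell markers were above and 4 below, 4 of 6 B cell markers above and 2 below, and 4 of 10 epithelial and fibroblast markers above and 6 below, so these counts alone did not set the myeloid list apart. NKG7 at 7.63, PAX5 at 9.54 and KRT18 at 9.27 gave the highest signal of their lists in DMSO, which does not rank the genes by transcript level. The next highest signals were GNLY at 5.56, CD79A at 5.95 and COL1A1 at 7.08. Every marker was read at its gene's probe set with the highest mean, and the probes of the KRT18 and COL1A1 ones may match other transcripts. The mean level of these lists in DMSO and in CA was 6.26 to 6.41 and 6.39 to 6.48 for myeloid markers, 4.92 to 4.998 and 4.86 to 5.14 for T and NK cells, 5.43 to 5.46 and 5.34 to 5.49 for B cells, and 4.96 to 5.06 and 4.92 to 5.09 for epithelial cells and fibroblasts. None of these markers passed limma's test over all genes, and at an unadjusted p under 0.05 there were 2 higher myeloid markers and 1 lower B cell marker, where 7.09% of all genes were higher and 4.50% lower at that threshold.

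CCR1, CCR2, CCR7 and CXCR4 read higher in CA than in DMSO at every one of their probe sets, with no overlap of the groups. CCR2 was at 1.96 times its DMSO level at its bright probe set and 1.19 times at its dim one, CCR7 at 1.63, CXCR4 at 1.36 to 1.58 and CCR1 at 1.475 to 1.502 over their probe sets. CX3CR1 was at 1.18 times its DMSO level at its bright probe set with overlapping groups at the other, and the dim CXCR2 was at 0.786 times its level with a gap of 0.057 log2 units between the groups. CCR6, CCRL2 and CXCR3 had overlapping groups or a gap under 0.01 log2 units. In pooled RNA such as this, more cells carrying a transcript and more transcript per cell cannot be told apart.

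**Figure D1:**
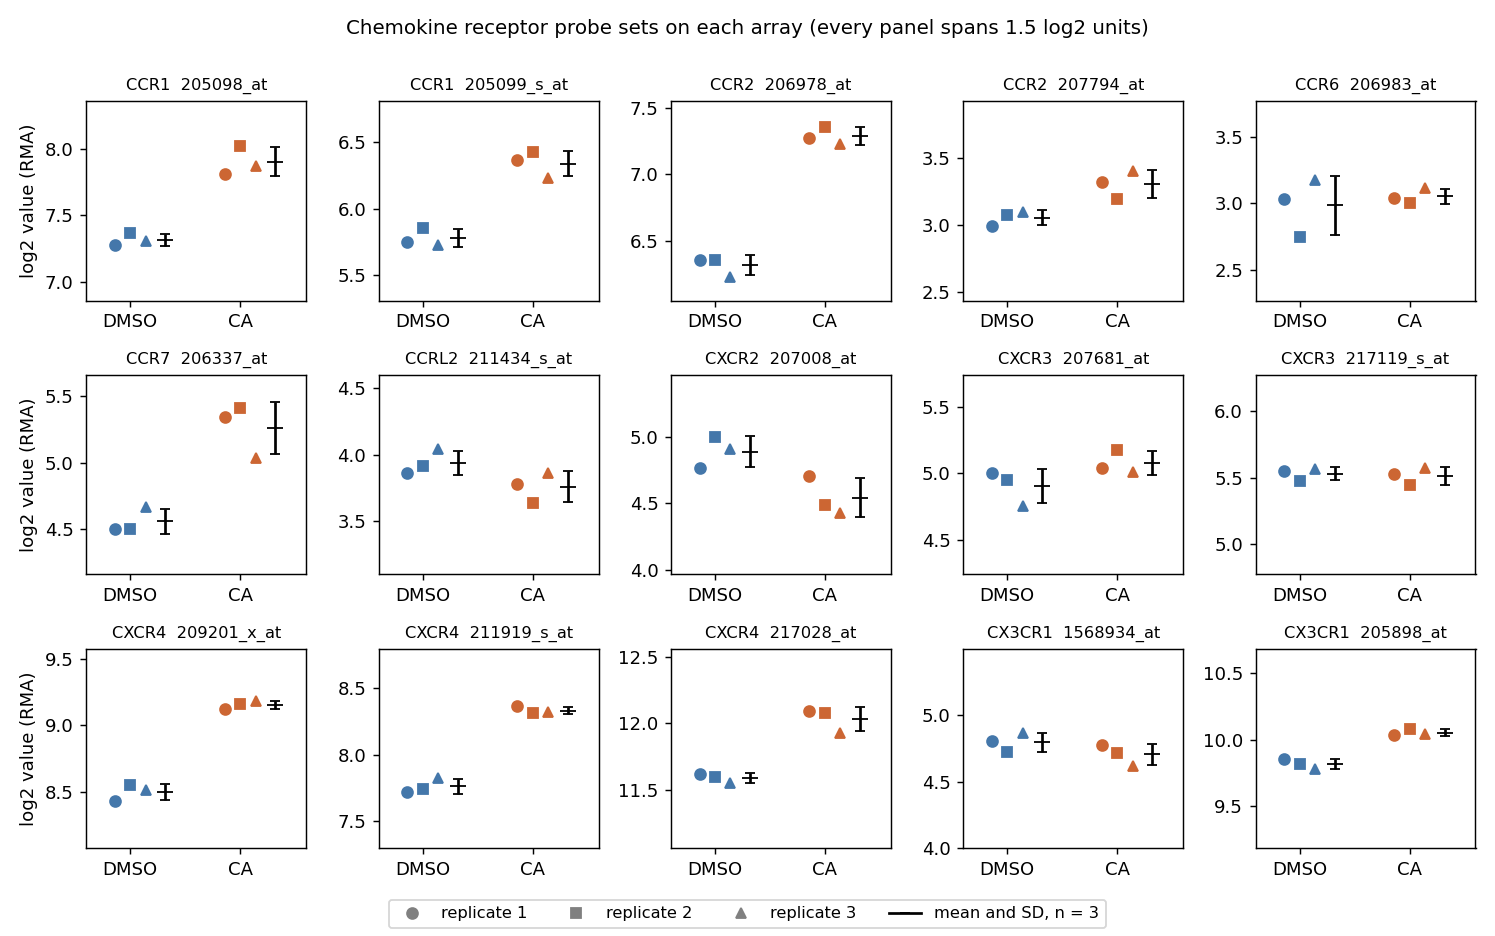
Log2 value of each of the 15 chemokine receptor probe sets on the 3 DMSO and 3 CA arrays, with the mean and SD of each group at the right of its points; marker shape gives the replicate number. All CA points lie above all DMSO points for CCR1, CCR2, CCR7, CXCR4 and the bright CX3CR1 probe set. They lie below them by 0.057 log2 units for CXCR2, and above them by only 0.0052 at 207681_at of CXCR3.

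CCR2 binds CCL2 and related chemokines and is the defining receptor of inflammatory monocytes. At probe set 206978_at its log2 values were 6.36, 6.36 and 6.23 in DMSO and 7.27, 7.36 and 7.23 in CA. All 3 CA arrays were above all 3 DMSO arrays, with 0.87 log2 units between the nearest values. The log2 change was 0.97 (SE 0.067), or 0.998 without CA replicate 3. The second CCR2 probe set, 207794_at, was assigned in the annotation to a different RefSeq transcript of the gene. It was dim, at 2.99, 3.08 and 3.10 in DMSO and 3.32, 3.20 and 3.40 in CA. Here too the groups did not overlap, but the nearest values were 0.10 apart and the log2 change was 0.25 (SE 0.072), which is 0.72 less than at the bright probe set. CCR2 is close in sequence to other chemokine receptors, and whether the probes tell them apart was not tested.

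CCR1, which answers to CCL3, CCL5 and other inflammatory chemokines on monocytes and neutrophils, gave nearly the same change at both of its probe sets. At 205098_at the values were 7.27, 7.36 and 7.30 in DMSO and 7.81, 8.02 and 7.87 in CA. At 205099_s_at they were 5.75, 5.86 and 5.73 in DMSO and 6.36, 6.42 and 6.23 in CA. Neither probe set had overlapping groups, although their signal in DMSO differed by 1.53 log2 units. The log2 changes were 0.59 (SE 0.072) and 0.56 (SE 0.072), and 0.60 and 0.61 without CA replicate 3.

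CXCR4, the receptor for CXCL12 that keeps haematopoietic and leukaemic cells in the marrow niche, was bright at all 3 of its probe sets. At 217028_at, the brightest, its values were 11.62, 11.60 and 11.55 in DMSO and 12.09, 12.08 and 11.93 in CA, a log2 change of 0.45 (SE 0.066). At 209201_x_at they were 8.43, 8.55 and 8.52 in DMSO and 9.13, 9.16 and 9.18 in CA, a change of 0.66 (SE 0.059). At 211919_s_at they were 7.72, 7.74 and 7.83 in DMSO and 8.36, 8.32 and 8.32 in CA, a change of 0.57 (SE 0.057). The 3 probe sets thus gave changes of the same sign that differed by up to 0.21, with no overlap of the groups at any of them. The suffixes _x_at and _s_at mark probe sets whose probes may match other transcripts or several transcripts of a family.

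CX3CR1, the receptor for the membrane-bound chemokine fractalkine (CX3CL1), is typical of patrolling monocytes and tissue macrophages. At 205898_at its values were 9.85, 9.82 and 9.78 in DMSO and 10.04, 10.08 and 10.04 in CA. The groups were 0.18 log2 units apart and tight, with SDs of 0.035 and 0.025, around a log2 change of 0.24 (SE 0.054). The other CX3CR1 probe set, 1568934_at, was below the array medians on every array, at 4.80, 4.72 and 4.86 in DMSO and 4.77, 4.72 and 4.62 in CA. Its groups overlapped, and its log2 change was -0.091 (SE 0.068), of the opposite sign.

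CCR7 guides dendritic cells and lymphocytes to lymph nodes along CCL19 and CCL21. Its single probe set, 206337_at, lay below the array medians in DMSO, at 4.50, 4.50 and 4.67, and read 5.34, 5.41 and 5.04 in CA. CA replicate 3 was the lowest of the CA arrays and still 0.37 log2 units above the highest DMSO array. The log2 change was 0.70 (SE 0.11), and 0.82 without that array.

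CXCR2, through which CXCL8 and CXCL1 recruit neutrophils, was the one receptor whose groups separated downward. Its probe set 207008_at read 4.76, 4.99 and 4.90 in DMSO and 4.70, 4.49 and 4.43 in CA. All values were below the array medians, and the lowest DMSO array was 0.057 log2 units above the highest CA array. The log2 change was -0.35 (SE 0.096), or -0.29 without CA replicate 3.

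The remaining 3 receptors differed little. CCRL2, which presents the chemoattractant chemerin to neighbouring cells, was dim, at 3.86, 3.91 and 4.04 in DMSO and 3.78, 3.64 and 3.86 in CA, with a log2 change of -0.18 (SE 0.081). The highest CA array had the same value as the lowest DMSO array. CCR6, the CCL20 receptor of dendritic cells and some lymphocytes, read 3.03, 2.74 and 3.18 in DMSO and 3.04, 3.01 and 3.12 in CA. Its DMSO arrays had the largest SD of any member, 0.22, against a log2 change of 0.069. CXCR3, the receptor for the interferon-induced chemokines CXCL9, CXCL10 and CXCL11, gave 5.01, 4.95 and 4.76 in DMSO and 5.04, 5.18 and 5.01 in CA at 207681_at, a log2 change of 0.17 (SE 0.085) with 0.0052 log2 units between the groups. At 217119_s_at, its other probe set, all 6 arrays lay between 5.44 and 5.57 and the log2 change was -0.016 (SE 0.062).

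**Figure D2:**
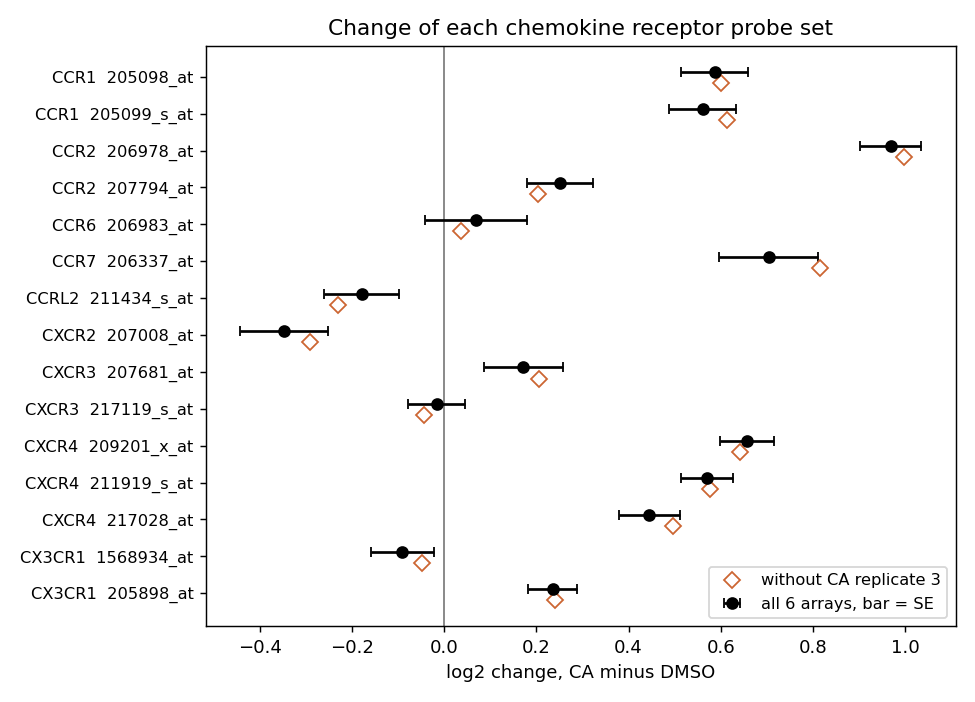
Log2 change of each probe set, CA minus DMSO, from all 6 arrays with its SE (black) and without CA replicate 3 (open diamonds). Leaving that array out moved CCR7 most, from 0.70 to 0.82, and changed the sign of none of the 15 probe sets.

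Counted over the members, 10 of the 15 probe sets had every CA array above every DMSO array and 1 had every CA array below, against 8.96% and 6.55% of all 54613 probe sets. The median log2 change was 0.25 over the 15 and -0.0011 over all probe sets. With limma (Benjamini-Hochberg adjustment over all non-control probe sets), 5 of the 15 had an adjusted p under 0.05, all higher in CA, where 0.220% of all probe sets did: both of CCR1, the bright one of CCR2, and 209201_x_at and 211919_s_at of CXCR4. In the fit with 1 probe set per gene, 4 of the 9 genes passed (CCR1, CCR2, CCR7 and CXCR4), where 0.895% of the 19775 genes did. That fit read CCR7 at 206337_at and CXCR4 at 217028_at, and neither of these passed in the fit over all probe sets. Because the receptors were assembled with this comparison in view, nothing is read from these counts. None of the 15 passed when any 1 of the 6 arrays was left out or with the replicate number as a block, and 8 passed with an intensity trend and a robust prior.

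**Figure D3:**
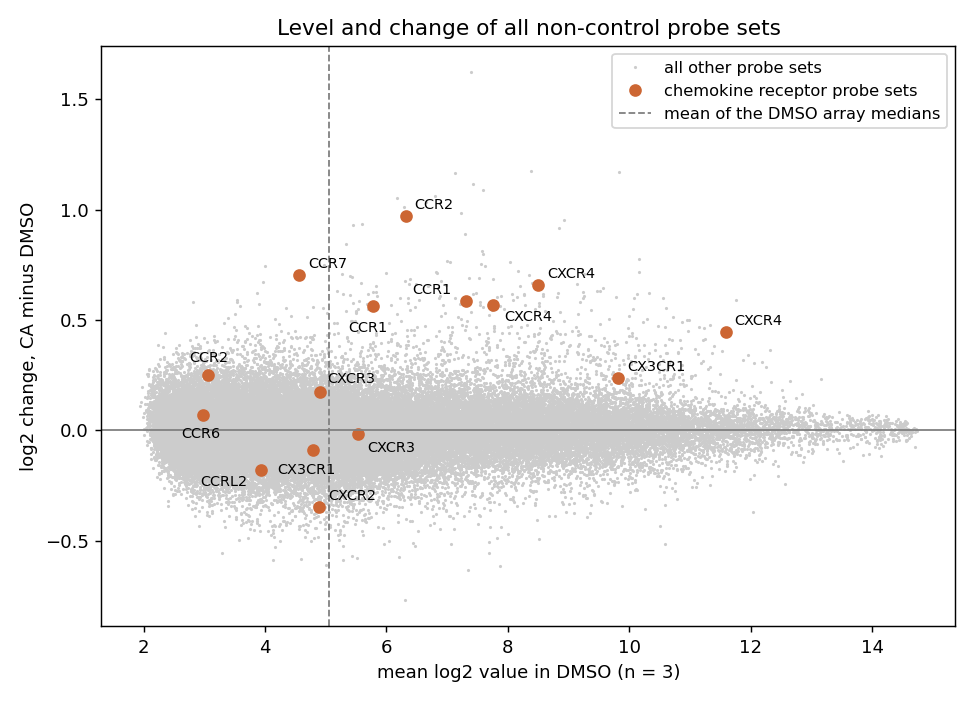
Mean log2 value in DMSO against log2 change for all non-control probe sets (grey) and the 15 chemokine receptor probe sets (orange). CCR2, CCR7, CCR1 and CXCR4 stand above the bulk of probe sets at their signal, while CXCR3, CCR6, CCRL2 and the dim probe sets of CCR2 and CX3CR1 lie within it.

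CCR1, CCR2 and CCRL2 lie close together on chromosome 3 in a cluster of chemokine receptor genes. Within 3 protein-coding genes of them, the neighbours analysed were FYCO1, CXCR6, XCR1, LTF, RTP3 and LRRC2. CXCR6 and XCR1, both chemokine receptors of lymphocytes or dendritic cells, had log2 changes of -0.075 (SE 0.055) and -0.0096 (SE 0.16). LTF, the lactoferrin gene, had 0.16 (SE 0.070, adjusted p = 0.446 in limma), and CCRL2 together with these 6 neighbours ranged from -0.18 to 0.16. Other genes lie between CCR1, CCR2 and CCRL2 and were not analysed here. Around all 9 members together, 34 neighbouring genes were measured, and 0 passed in limma over all genes. At an unadjusted p under 0.05, GPR31 next to CCR6 was higher, and OGT near CXCR3 and CSRNP1 and XIRP1 near CX3CR1 were lower. That is 1 and 3 of 34, against 7.09% and 4.50% of all genes. The median log2 change of the 34 was -0.029. CXCR1, which adjoins CXCR2 and shares its ligand CXCL8, had a log2 change of -0.022 (SE 0.065), with groups that overlapped.

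**Figure D4:**
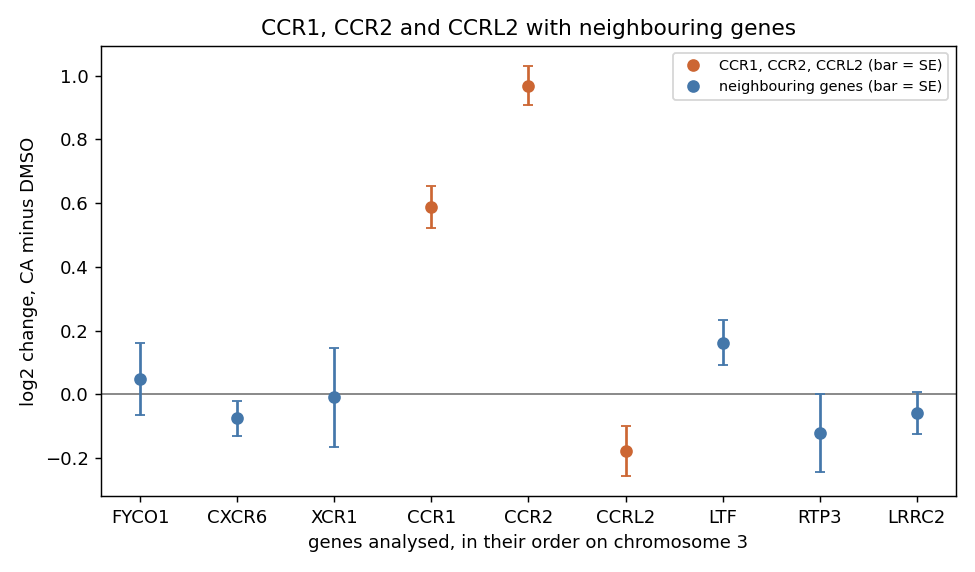
Log2 change, CA minus DMSO, with its SE, for CCR1, CCR2 and CCRL2 (orange) and the genes analysed around them (blue), in their order on chromosome 3; spacing is not to scale. CCR1 at 0.59 and CCR2 at 0.97 lie above the other genes, which range from -0.18 to 0.16; genes not analysed here are left out.

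The 3 receptors that were higher at more than 1 bright probe set or by the widest margin, CCR1, CCR2 and CXCR4, are shown by the 250 bases before their annotated starts, to set their sequences side by side. Sequences are from RefSeq on GRCh38.p14, 5′ to 3′ on the strand of the gene. Capitals mark matches on either strand to 5 short motifs, which are the PU.1 core GAGGAA, the C/EBP motif TTGCNNAA, the RUNX core TGTGGT, the NF-kB motif GGGANTTCC and the TATA box TATAAA. CCR1 lies on the minus strand, with its window at chr3:46208314-46208563. CCR2 lies on the plus strand, with its window at chr3:46353861-46354110. CXCR4 lies on the minus strand, and the window of the most upstream of its 3 starts is at chr2:136118150-136118399.
CCR1: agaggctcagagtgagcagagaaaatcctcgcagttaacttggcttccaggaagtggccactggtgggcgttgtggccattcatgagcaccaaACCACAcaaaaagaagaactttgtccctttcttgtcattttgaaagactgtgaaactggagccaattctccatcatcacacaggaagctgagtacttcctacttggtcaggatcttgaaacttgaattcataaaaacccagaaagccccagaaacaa
CCR2: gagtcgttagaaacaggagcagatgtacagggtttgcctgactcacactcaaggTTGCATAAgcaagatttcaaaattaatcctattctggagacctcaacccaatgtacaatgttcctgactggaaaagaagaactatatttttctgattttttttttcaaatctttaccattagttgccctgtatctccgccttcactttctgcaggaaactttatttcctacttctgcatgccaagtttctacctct
CXCR4: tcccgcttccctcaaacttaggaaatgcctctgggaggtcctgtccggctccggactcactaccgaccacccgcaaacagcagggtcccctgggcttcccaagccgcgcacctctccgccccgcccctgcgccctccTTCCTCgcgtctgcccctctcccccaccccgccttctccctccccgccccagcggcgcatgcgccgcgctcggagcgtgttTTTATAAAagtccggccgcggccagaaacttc
The CCR1 and CCR2 windows had 45.2% and 38.8% G and C, and the CXCR4 window had 68.0%, where the median over 35116 windows of this kind was 58.0%. Their matches also differed: 1 to the RUNX core in CCR1, 1 to the C/EBP motif in CCR2, and 1 to the PU.1 core and 2 overlapping matches to the TATA box in CXCR4. The windows of the other CXCR4 starts, not shown, had 55.6% and 51.6% G and C and no match to the TATA box. Windows were found for 8 of the 9 receptors, 15 in all because some have several starts. Of these, 8 held the PU.1 core, 3 the C/EBP motif, 4 the RUNX core, 2 the TATA box and 0 the NF-kB motif, against 23.57%, 9.05%, 10.98%, 10.72% and 1.592% of all windows. Windows of 1 gene are not independent, and a match describes letters only.

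The wider chemokine system was followed in lists of genes that were chosen with earlier results of these data known. Over 5 lists of ligands, other receptors and signalling genes, 2 of 103 measured genes passed in limma over all genes, both higher, where 0.895% of all genes did, and 11 listed genes were not analysed here. Both were lost with the replicate number as a block, at adjusted p = 0.159 for CXCL10 and 0.0640 for RGS16.

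**Figure D5:**
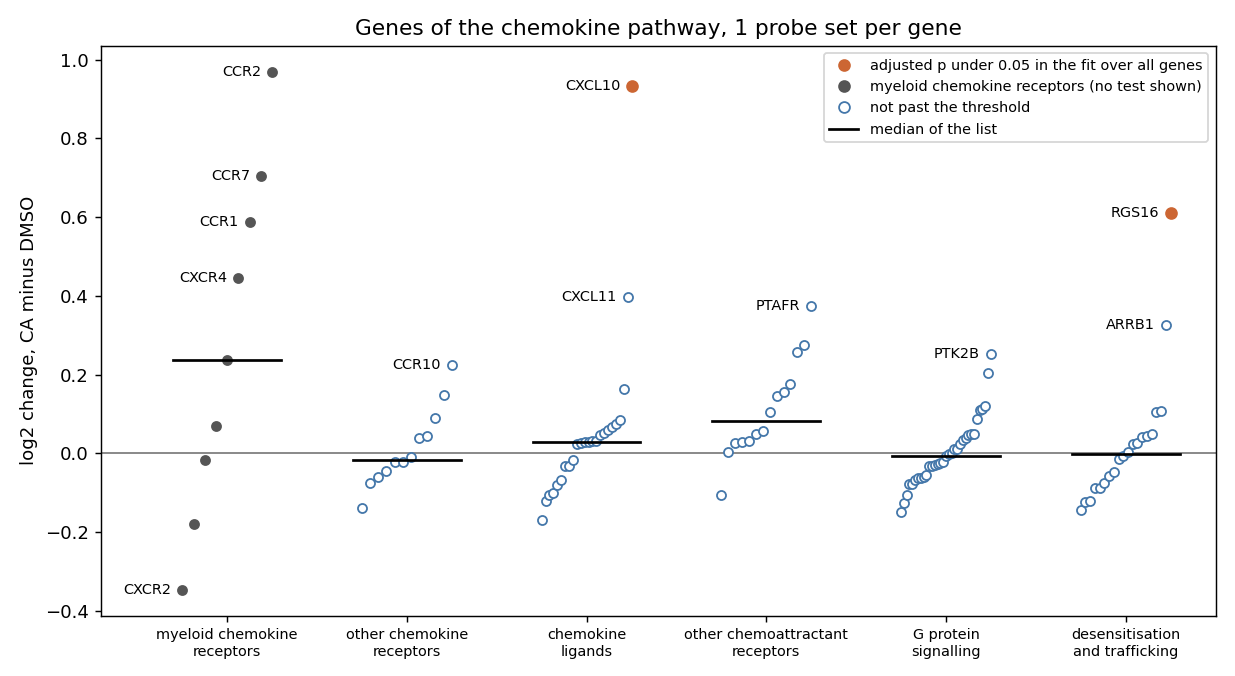
Log2 change, CA minus DMSO, at 1 probe set per gene for the myeloid chemokine receptors (grey, no test shown) and 5 lists of the chemokine system; black lines are list medians. CXCL10 and RGS16 (orange) are the 2 genes outside the receptors that passed.

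Among 24 measured ligands of these receptors, CXCL10, which signals through CXCR3, rose 1.91-fold (95% confidence interval 1.54 to 2.36, adjusted p = 0.0332 in limma). Mean log2 values were 5.44 ± 0.21 for DMSO and 6.37 ± 0.16 for CA (SD, n = 3 each), and the groups did not overlap. The same probe set did not pass in the fit over all probe sets. In the fit over genes the call was lost when any 1 array was left out, with adjusted p from 0.0882 to 0.146. CXCL11, a second CXCR3 ligand, had log2 changes of 0.40 and 0.42 at its 2 probe sets (adjusted p = 0.429 at the one used, where its groups overlapped). CXCL9, also a CXCR3 ligand, had 0.075 (SE 0.13) with overlapping groups. CXCL12, the CXCR4 ligand, was at 4.50 in DMSO and 4.57 in CA, and CCL2, the main CCR2 ligand, at 2.93 and 2.90, all below the array medians. Of the 24 ligands, 5 were above the array medians on every array and 17 below. The median log2 change of the ligands was 0.029. At an unadjusted p under 0.05, CXCL10 and CXCL11 were higher and CCL20, the CCR6 ligand, was lower, which is 2 and 1 of 24 against 7.09% and 4.50% of all genes.

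Of 12 other chemokine receptors, 0 passed in limma over all genes and 0 had an unadjusted p under 0.05. At the unadjusted threshold, 7.09% of all genes were higher and 4.50% lower. The log2 changes of the 12 receptors ran from -0.14 to 0.22 with a median of -0.016, and 9 of the 12 were below the array medians on every array. The 2 furthest above 0 were CCR10, a receptor of skin-homing lymphocytes, at 0.22 (SE 0.16), and ACKR3, an atypical receptor that takes up CXCL12, at 0.15 (SE 0.081). Without CA replicate 1 these were 0.079 and 0.085, and without CA replicate 3 they were 0.39 and 0.15. The 2 other ACKR3 probe sets gave -0.080 and -0.025.

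Among 14 receptors for other leukocyte attractants, such as formyl peptides, complement fragments and lipids, 0 passed in limma over all genes. At an unadjusted p under 0.05 there were 3 higher and 0 lower of the 14, against 7.09% and 4.50% of all genes. PTAFR, the receptor for platelet-activating factor, had a log2 change of 0.37 (adjusted p = 0.127). Among the alternatives it passed only with an intensity trend and a robust prior (adjusted p = 0.0193 in limma). Its other probe sets gave 0.35 and 0.15, with overlapping groups at the latter. C5AR1, the receptor for the complement fragment C5a, had 0.27 at a dim probe set (adjusted p = 0.305). CYSLTR1, a leukotriene receptor named after its values were seen, had 0.26 (adjusted p = 0.0964). The median of the list was 0.081, against 0.0037 over all genes.

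The machinery downstream of the receptors was bright, with 31 of 33 measured G protein signalling genes above the array medians on every array. None passed in limma over all genes. At an unadjusted p under 0.05, 1 of the 33 was higher and 0 lower, against 7.09% and 4.50% of all genes. The higher gene was PTK2B, a kinase activated by calcium and chemokine signals. It had a log2 change of 0.25 (adjusted p = 0.261) and -0.0037 at its other probe set. PIK3R6, a regulatory subunit of the G protein-coupled PI3-kinase, had 0.20 (SE 0.21). GNAI2, the inhibitory G protein subunit most used by chemokine receptors in leukocytes, had -0.023, and the median of the list was -0.0075.

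Of 20 measured genes listed under receptor desensitisation and trafficking, RGS16 rose and 0 fell in limma over all genes, where 0.895% of all genes passed. RGS16, which speeds the shut-off of inhibitory G proteins, read 8.27 ± 0.06 in DMSO and 8.89 ± 0.03 in CA (SD, n = 3 each), 1.53-fold higher (95% confidence interval 1.41 to 1.66, adjusted p = 0.00890). Its other probe sets gave log2 changes of 0.37 and -0.079, the latter at a dim probe set. Leaving out any array but CA replicate 3 ended the call, with adjusted p from 0.0582 to 0.0672. ARRB1, a beta-arrestin that uncouples and internalises receptors, was the other gene higher at an unadjusted p under 0.05, with a log2 change of 0.33 (adjusted p = 0.0953) and 0.030 to 0.23 at its 6 other probe sets. At that unadjusted threshold, 2 of the 20 were higher and 0 lower, against 7.09% and 4.50% of all genes. These 20 genes had a median log2 change of -0.0028.

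The genes whose values over the 6 arrays most resembled those of CCR2 at 206978_at were GPR183, ERLIN1, BHLHE40, ALDH1A3 and SHISA2, with Pearson's r of 0.999, 0.998, 0.998, 0.997 and 0.997. They were ranked among 143 probe sets of other genes with a log2 change of at least 0.5 in either direction and a mean at or above the median probe set. GPR183, an oxysterol receptor that also directs leukocyte migration, had a log2 change of 1.17. For CCR7 the closest were SUCNR1, DUSP6, HOXA11-AS, RAB33A and LMTK2, with r from 0.978 to 0.986 among 144 such probe sets. The 6 arrays fall into the 2 groups compared, and these correlations share that difference between the groups.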

How the data were processed

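MOLM-14 RNA was labelled with a 3′ Affymetrix kit and hybridised to 6 arrays, 3 per group. The authors deposited log2 values for each probe set; per the submitters' processing notes, RMA in the affy package produced them. RMA forces all arrays to 1 distribution, which hides any shift common to the whole transcriptome and can compress differences of dim probe sets. Tool versions, scan dates and the RNA reagent used for each sample: not given in the sources used here. Values were used as deposited. Of 54675 probe sets, 62 controls were left out, and probes were named from the platform annotation, with 41091 probe sets holding 1 symbol, 1801 several and 11721 none.

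Differences between CA and DMSO were fitted in R 4.3.3 using limma 3.58.1 (lmFit, eBayes, two-sided, Benjamini-Hochberg, adjusted p under 0.05), over all non-control probe sets and over 19775 genes at the probe set with the highest mean. SEs of members come from the first fit, except in the figure of neighbouring genes, where all SEs come from the second. Those p-values rest on the spread between 3 arrays a group and a pooled prior. The probe set fit was tested on simulated data. The members, gene lists and motifs were chosen with earlier results of these data known. Genes named were all members, list genes past the threshold or with the largest changes, and neighbours within 3 protein-coding genes. The 5 probe sets most correlated with CCR2 and with CCR7 were named as well. CXCL9, CXCL12, CCL2, GNAI2, CYSLTR1 and the single cell type markers printed were picked from their lists after values were seen. Alternatives were the trend, filters, scaling, a replicate block, array weights, leaving out each array, and the mean of a gene's probe sets.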

Additional observations from a re-analysis of the deposited data

How the results depend on the processing

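With 3 arrays a group, precision is limited. Changed probe sets over the whole array, 120 as reported, were 740 with an intensity trend and robust prior, 398 without dim probe sets, 47 without _x_at, _s_at and _a_at probe sets, 196 with array weights and 0 to 6 when 1 array was left out. Changed genes, 177 as reported, were 546, 351 and 74 under the first 3 of these and 1 to 112 with 1 array left out. The 2 changed pathway genes became 5, 4 and 1, and 0 to 1 with 1 array left out. The 5 member probe sets past the threshold became 8 with the trend, 6 of the 8 left without dim probe sets, 1 of the 10 left without _x_at, _s_at and _a_at probe sets, and 0 without each array. With the replicate block, 1 probe set, 6 genes, 0 pathway genes and 0 member probe sets passed. Deviations of same-numbered arrays had correlations of 0.080, 0.19 and 0.26. Those of differently numbered arrays ran from -0.225 to 0.0825, and the labels do not state a pairing. The median change of the members lay between 0.24 and 0.31 with 1 array left out. Centring, a second quantile normalisation and a ratio of linear means moved no member by more than its SD between replicates. Direction turned for ACKR3 (-0.025) and RGS16 (-0.079) at the probe set left when _x_at, _s_at and _a_at ones were dropped, and for PIK3R6, whose change lay between -0.023 and 0.41 with 1 array left out, without CA replicate 2. Among the members, the sign turned at 2 probe sets with overlapping groups. CCR6 was at -0.051 without DMSO replicate 2. CXCR3 at 217119_s_at was at 0.021 without CA replicate 2 and 4.0e-05 without DMSO replicate 3. The causes were not tested.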
